A study of Mus musculus with 8 samples.

Results

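The transcripts described here are 10 genes of the BCL-2 family of cell death regulators, taken by symbol from the 32285 features of a spatial gene expression series: the ABT263-bound guardians *Bcl2*, *Bcl2l1* (BCL-XL) and *Bcl2l2* (BCL-w), the guardian *Mcl1*, the effectors *Bax* and *Bak1*, and the BH3-only genes *Bad*, *Bbc3* (PUMA), *Pmaip1* (NOXA) and *Bcl2l11* (BIM). All 10 had UMIs, among 23630 genes with a UMI. A UMI is 1 captured transcript molecule.

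This family decides whether mitochondria release cytochrome c and so start apoptosis. Guardians such as BCL-2, BCL-XL, BCL-w and MCL-1 hold back the pore-forming effectors BAX and BAK, and BH3-only proteins, made in response to stress, bind guardians or effectors and tip the balance toward death. Many senescent cells lean on the guardians to survive, and ABT263 (navitoclax) is a BH3 mimetic that binds BCL-2, BCL-XL and BCL-w but has little affinity for MCL-1.

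The series asked how paclitaxel (PTX), a chemotherapy drug, and later removal of senescent cells change the mouse brain. Visium slides captured polyadenylated RNA from 10 µm coronal sections on barcoded spots of 55 µm, each of which can hold several cells. There were 8 sections in 4 groups of 2. All mice carried the p16-3MR transgene, in which the promoter of the senescence gene p16 drives a reporter and a viral thymidine kinase, so that ganciclovir (GCV) can kill cells that use this promoter, and the labels call all of them males of 9 to 10 months. The PTX+ABT263 group received PTX (5 mg/kg/day, 2 cycles of 5 days, 7 days apart) and then ABT263 (1.5 mg/kg/day, 2 cycles of 5 days, 2 weeks apart). The PTX+GCV group received the same PTX and then GCV (25 mg/kg/day) on the same schedule. The PTX group received PTX and then vehicle, and the Control group received vehicle (DMSO and saline). Brains were taken 6 months after PTX.

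Spots kept for analysis numbered 21328, with 19870666 to 42886400 UMIs per section. Both sections labelled PTX+ABT263 went against their sex label: *Xist*, the transcript that silences an X chromosome in females, stood at 19.7 and 19.3 CPM (UMIs of a gene per 1000000 UMIs of the same section or area) in them and at 0 to 0.0259 CPM in the other sections, while the Y-linked *Ddx3y* stood at 0.444 and 0 CPM in them and at 31.1 to 35.8 CPM in the others. Every difference between PTX+ABT263 and another group therefore cannot be told apart from a difference of sex. A list of 9 red and white blood cell genes summed to 112 and 8.59 CPM in PTX+ABT263, 61.6 and 43.4 CPM in PTX+GCV, 331 and 340 CPM in PTX and 93.5 and 61.9 CPM in Control, and its part in the results was not tested.

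*Bcl2l1* gave the most UMIs of the 10 genes and *Pmaip1* the fewest. Pooled over 8 sections, *Bcl2l1* stood at 74.7 CPM, with 20409 UMIs in 54.2% of spots. It was followed by *Bax* at 57.4 CPM, *Bad* at 48.8 CPM, *Mcl1* at 45.8 CPM and *Bcl2l2* at 41.7 CPM. Then came *Bcl2* at 13.7 CPM, *Bak1* at 8.31 CPM, *Bbc3* at 7.37 CPM, *Bcl2l11* at 3.53 CPM and *Pmaip1* at 2.62 CPM, the last from 717 UMIs in 3.12% of spots. The UMIs tag transcript ends and were not divided by length, so this is an order of captured molecules. Over the 8 sections the ranges of neighbours overlapped from *Bcl2l1* to *Bcl2l2*. They were 61.5 to 86.7 CPM for *Bcl2l1*, 52.39 to 61.8 CPM for *Bax* and 44.6 to 52.44 CPM for *Bad*. For *Mcl1* the range was 38.1 to 54.6 CPM, for *Bcl2l2* 36.9 to 49.4 CPM and for *Bcl2* 11.8 to 15.5 CPM. Within every section *Bcl2l1* was above *Bax*, *Bax* above *Bad*, and *Bcl2l2* above *Bcl2*. *Bcl2l1* and *Bax* came closest in PTX replicate 1, at 61.5 and 59.3 CPM. The order of *Bad*, *Mcl1* and *Bcl2l2* differed between sections. The ranges of *Bak1* (7.51 to 9.60 CPM) and *Bbc3* (5.87 to 9.00 CPM) overlapped too. Over the same sections the levels lay between 3.10 and 3.99 CPM for *Bcl2l11* and 2.33 and 2.82 CPM for *Pmaip1*. *Bcl2l1* alone made up 24.6% of the family's 83059 UMIs and *Bcl2* 4.50%.

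In the GENCODE vM21 annotation of GRCm38, *Bcl2* spans chr1:106538178-106714274, *Bcl2l1* chr2:152780668-152831728, *Bcl2l2* chr14:54883377-54888234 and *Mcl1* chr3:95658788-95663176. The counts are sums over whole genes and do not separate isoforms, such as the long and short forms of BCL-X, which act against each other.

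The mix of guardians was not the same in each brain area, as a description without a test. Spots were grouped by clustering without these 10 genes, and clusters were named from listed markers among their 10 leading genes, giving 12 areas, 2 of which are called by leading genes alone. The names isocortex and reticular thalamus and pallidum rest on only 1 or 2 such markers per cluster. Since the areas come from the same spots, the levels below are a description without a test. Levels are shares of the UMIs of an area. A lower one can come from fewer cells of a type, less RNA per cell or more of other transcripts. These cannot be told apart.

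**Figure D1:**
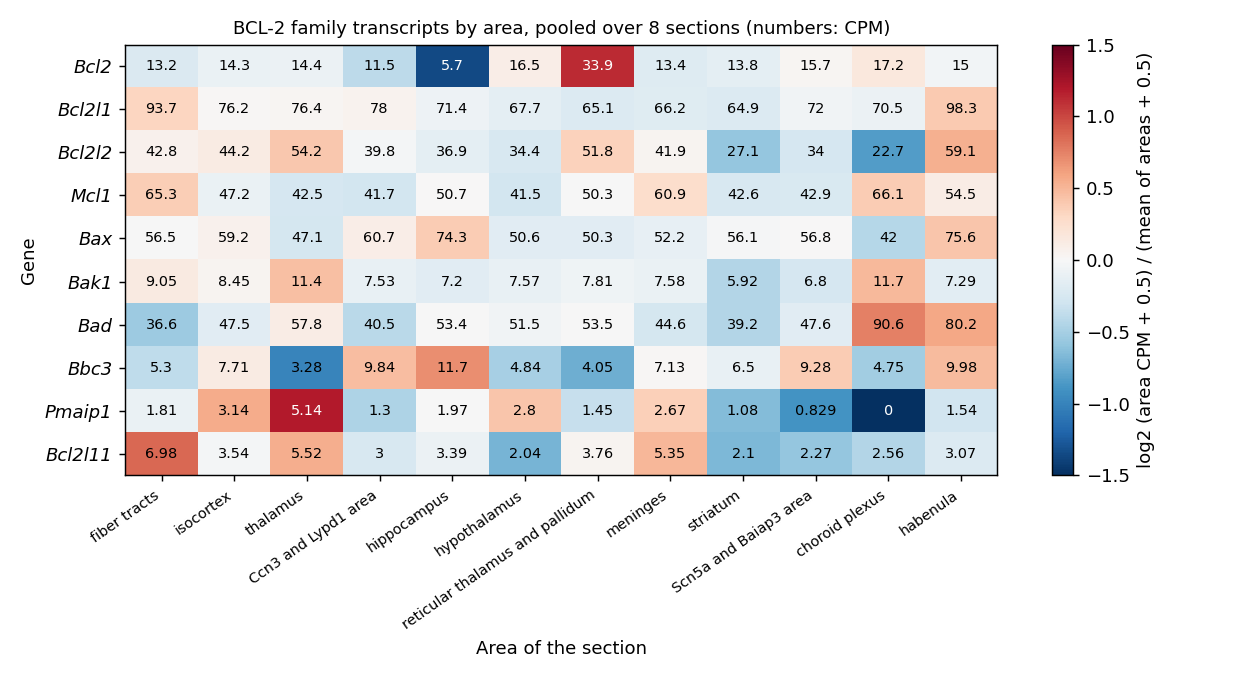
Level of each gene (rows) in each of 12 areas (columns), pooled over 8 sections. Numbers are CPM and colours the log2 ratio of an area to the mean of the areas, after adding 0.5 CPM to both. *Bcl2* ranges between 5.70 CPM in hippocampus and 33.9 CPM in reticular thalamus and pallidum, while *Bcl2l1* stays between 64.9 and 98.3 CPM.

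Among the guardians *Bcl2* varied most between areas. It was at 33.9 CPM in the reticular thalamus and pallidum, areas rich in inhibitory neurons, against 13.4 CPM in the rest of the sections, and above the rest in 8 of 8 sections. Every listed fiber tract marker was also higher in the spots of that area than in the other spots. The area gave only 117 *Bcl2* UMIs, and single sections ran between 17.0 and 76.4 CPM. In the hippocampus it stood at 5.70 CPM against 14.4 CPM in the rest, and was below the rest in 8 of 8 sections. The highest area was 5.94 times the lowest.

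*Bcl2l1* was far more even, its highest area being 1.51 times its lowest. It was at 98.3 CPM in the habenula and 93.7 CPM in the fiber tracts, the myelinated white matter, against 74.5 and 74.1 CPM in the rest, and in each of these areas 7 of 8 sections had it above the rest. The fiber tract spots were shallow, with a median of 2533 UMIs. *Bcl2l2* was at 54.2 CPM in the thalamus against 39.6 CPM in the rest (above in 8 of 8 sections), and at 27.1 CPM in the striatum against 42.5 CPM (below in 8 of 8).

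*Mcl1*, the guardian with little affinity for ABT263, was highest in the choroid plexus, the fiber tracts and the meninges. It was at 65.3 CPM in the fiber tracts against 45.3 CPM in the rest (above in 8 of 8 sections), at 66.1 CPM in the choroid plexus against 45.6 CPM (7 of 8) and at 60.9 CPM in the meninges against 45.6 CPM (6 of 8). Pooled over sections, the summed UMIs of *Bcl2*, *Bcl2l1* and *Bcl2l2* were 1.67 times those of *Mcl1* in the choroid plexus, 2.00 times in the meninges, 2.25 times in the hippocampus and 2.29 times in the fiber tracts, and 3.41 times in the thalamus. Single sections ran between 0.5 and 2.55 times in the choroid plexus and 1.38 and 4.92 times in the meninges. They ran between 1.99 and 2.80 times in the hippocampus, 1.76 and 2.85 times in the fiber tracts and 3.05 and 3.80 times in the thalamus. The meningeal range thus took in that of the thalamus.

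The effectors and BH3-only genes had patterns of their own. *Bax* was at 74.3 CPM in the hippocampus against 55.8 CPM in the rest (above in 8 of 8 sections) and at 47.1 CPM in the thalamus against 59.2 CPM (below in 8 of 8). *Bak1*, the other effector, ran the other way in the thalamus, at 11.4 CPM against 7.78 CPM (above in 8 of 8). *Bbc3*, a target of p53, was at 11.7 CPM in the hippocampus against 6.96 CPM (above in 7 of 8) and at 3.28 CPM in the thalamus against 8.06 CPM (below in 8 of 8).

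*Pmaip1*, whose protein binds MCL-1, was at 5.14 CPM in the thalamus against 2.20 CPM in the rest and at 3.14 CPM in the isocortex against 2.40 CPM, above the rest in 8 of 8 sections in both. *Bcl2l11* was at 6.98 CPM in the fiber tracts against 3.43 CPM (above in 8 of 8), from 54 UMIs. *Bad*, whose protein binds BCL-XL and is held inactive by 14-3-3 proteins, was at 90.6 CPM in the choroid plexus against 48.4 CPM (above in 7 of 8) and at 36.6 CPM in the fiber tracts against 49.2 CPM (below in 7 of 8).

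The isocortex joined 2 clusters, one led by genes such as *Lamp5*, *Rspo1* and *Vip* and one by genes such as *Ccn2*, *Fezf2* and *Nxph3*, which mark deep layers. *Bcl2l1* averaged 69.7 ± 7.82 CPM in the *Lamp5* cluster and 83.8 ± 9.52 CPM in the *Ccn2* cluster (SD, n = 8 sections), *Bcl2* 12.7 ± 1.57 and 16.1 ± 2.81 CPM, and *Bad* 43.9 ± 3.83 and 50.5 ± 3.50 CPM. Each of these 3 genes was lower in the *Lamp5* cluster in 8 of 8 sections. *Mcl1* averaged 47.1 ± 8.16 CPM in the *Lamp5* cluster and 48.2 ± 5.44 CPM in the *Ccn2* cluster and was higher in the *Lamp5* cluster in 4 of 8 sections.

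**Figure D2:**
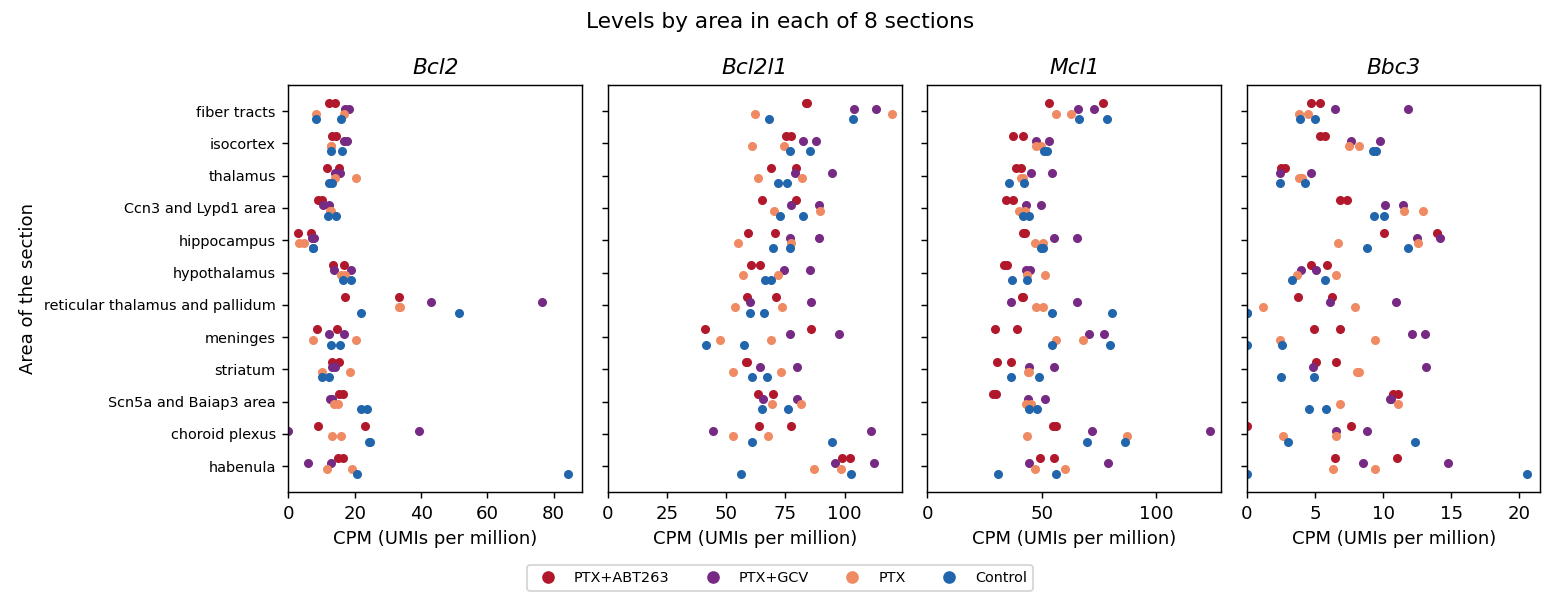
Levels of *Bcl2*, *Bcl2l1*, *Mcl1* and *Bbc3* in CPM (horizontal axes) in 12 areas (vertical axis), 1 point per section coloured by group. *Bcl2* lies between 2.88 and 7.74 CPM in every hippocampus, and in the reticular thalamus and pallidum the points spread between 17.0 and 76.4 CPM.

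Over the 12 areas, the genes whose profile was most like that of *Bcl2* among 14642 genes with at least 200 UMIs were *Blvra* (Pearson r = 0.92), *Car8* (0.88) and *Gpx1* (0.87). For *Bcl2l1* they were *Atr* (0.91), *C230037L18Rik* (0.88) and *Clasrp* (0.86), for *Bcl2l2* *Hdac5* (0.95), *Ubap1* (0.94) and *Agpat3* (0.92), and for *Mcl1* *Ctsa* (0.93), *Cyp4f13* (0.92) and *Cat* (0.91). The 12 points come from the same libraries. These are the highest of 14642 values of r over only 12 points, and how high the best would run without any relation was not tested. Among the 10 genes, the profiles of *Bax* and *Bbc3* correlated at 0.74, those of *Pmaip1* and *Bcl2l11* at 0.65 and those of *Bcl2* and *Bbc3* at -0.65. These are the strongest of all pairs of the 10 genes over the same 12 points, and were not tested.

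To ask whether the treatments changed the family, UMIs were summed per section and tested across all genes. None of the 10 genes passed an adjusted p of 0.05 in any comparison of whole sections (edgeR quasi-likelihood test, Benjamini-Hochberg over 16671 genes), and DESeq2 called 0 as well. Of all genes tested, 0.138% passed for PTX+ABT263 against PTX, 0.024% for PTX+GCV against PTX and 0.126% for PTX against Control. At an unadjusted p under 0.05, 1 of the 10 genes passed for PTX+ABT263 against PTX (11.8% of all genes), 0 for PTX+GCV against PTX (10.7%) and 0 for PTX against Control (13.5%). The labels do not say that sections of a group came from separate animals, so p-values measure only the spread between these sections.

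**Figure D3:**
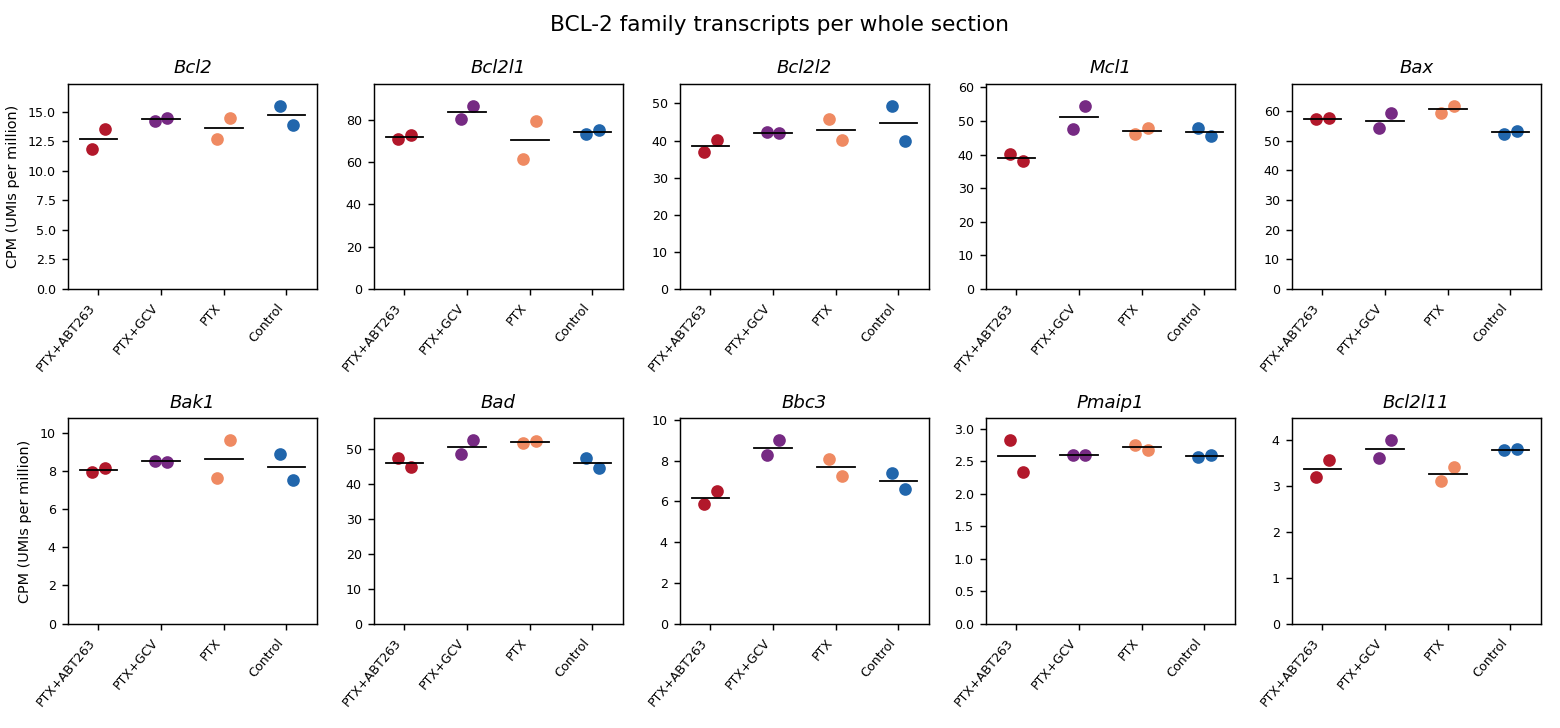
CPM of each gene per whole section, with vertical axes from 0. Points are sections, bars the means of the 2 sections of a group. *Mcl1* lies at 40.2 and 38.1 CPM in PTX+ABT263 and at 45.4 CPM or more in the other 6 sections.

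*Mcl1* came closest. It stood at 40.2 and 38.1 CPM in PTX+ABT263, 47.6 and 54.6 CPM in PTX+GCV, 46.0 and 47.9 CPM in PTX and 48.0 and 45.4 CPM in Control. Both PTX+ABT263 sections were below all others. The fitted log2 difference was -0.15 ± 0.07 (SE) for PTX+ABT263 against PTX (95% interval -0.29 to -0.00, adjusted p = 0.418, edgeR), -0.19 ± 0.07 against Control (adjusted p = 0.391, edgeR) and -0.23 ± 0.07 against PTX+GCV (adjusted p = 0.115, edgeR). These comparisons share the PTX+ABT263 sections. Mitochondrial UMIs, a sign of RNA quality, were at least 14.3% of all in both PTX+ABT263 sections, against 11.9% and 9.58% in PTX+GCV, 12.7% and 12.7% in PTX and 11.8% and 13.9% in Control, and their part in the *Mcl1* difference was not tested. Where libraries were scaled by total counts alone, the difference from PTX+GCV passed (-0.39, adjusted p = 0.0171, edgeR), but this scaling moved the median of all genes to -0.16. With each area given equal weight it also passed (-0.45, adjusted p = 0.0291, limma), with the median of all genes at -0.12. Over all alternatives its adjusted p ran between 0.0171 and 0.565. Of all genes, 0.984% passed for PTX+ABT263 against PTX+GCV with TMM factors, 0.198% for PTX+ABT263 against Control and 0% for PTX+GCV against Control (edgeR, where DESeq2 called 49 genes). At an unadjusted p under 0.05, 3 of the 10 genes passed for PTX+ABT263 against PTX+GCV (16.5% of all genes), 2 for PTX+ABT263 against Control (9.98%) and 0 for PTX+GCV against Control (10.7%).

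By levels scaled with TMM factors, 3 of the 10 genes (*Mcl1*, *Bbc3* and *Bad*) did not overlap between PTX+ABT263 and PTX, all lower in PTX+ABT263, beside 44.6% of all genes. For PTX+GCV against PTX 6 of 10 did not overlap, beside 40.8% of all genes, and for PTX against Control 5 of 10, beside 42.3%. The counts were 3 of 10 for PTX+ABT263 against Control (42.2% of all genes), 7 for PTX+GCV against Control (40.9%) and 4 for PTX+ABT263 against PTX+GCV (51.2%).

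The ABT263-bound guardians showed no change that passed. *Bcl2l1* stood at 70.8 and 72.7 CPM in PTX+ABT263, 80.5 and 86.7 CPM in PTX+GCV, 61.5 and 79.4 CPM in PTX and 73.5 and 75.1 CPM in Control. The PTX sections lay farther apart than any other pair. Its log2 difference was 0.14 for PTX+ABT263 against PTX (95% interval -0.08 to 0.37), 0.21 for PTX+GCV against PTX (-0.01 to 0.43) and -0.13 for PTX against Control (-0.35 to 0.10). Without PTX replicate 1, the lower of the PTX sections, *Bcl2l1* was at -0.034 for PTX+ABT263 against PTX, 0.032 for PTX+GCV against PTX and 0.049 for PTX against Control.

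*Bcl2* stood at 11.8 and 13.5 CPM in PTX+ABT263, 14.2 and 14.4 CPM in PTX+GCV, 12.7 and 14.5 CPM in PTX and 15.5 and 13.8 CPM in Control. *Bcl2l2* averaged 38.5 ± 2.32 CPM in PTX+ABT263, 42.1 ± 0.157 CPM in PTX+GCV, 43.0 ± 3.98 CPM in PTX and 44.7 ± 6.69 CPM in Control (SD, n = 2 sections each). For PTX+ABT263 against PTX the 95% intervals were -0.22 to 0.25 for *Bcl2* and -0.25 to 0.17 for *Bcl2l2*. These are bounds on the fitted differences and not limits of detection. In counts simulated for PTX against Control, the test found only 54.1% of the genes set to differ 1.5 times in whole sections. Those genes were drawn at random, so the share is not one for these guardians or for PTX+ABT263 against PTX.

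*Bax* stood at 57.2 and 57.7 CPM in PTX+ABT263, 54.2 and 59.2 CPM in PTX+GCV, 59.3 and 61.8 CPM in PTX and 52.4 and 53.4 CPM in Control. By CPM all 6 sections from mice given PTX were above both Control sections, but with the TMM factors of the test PTX+GCV (52.8 and 55.2 CPM) and Control (51.9 and 55.3 CPM) overlapped for *Bax*. The log2 difference was 0.14 ± 0.07 for PTX against Control (SE, adjusted p = 0.378, edgeR) and 0.18 ± 0.07 for PTX+ABT263 against Control (adjusted p = 0.402, edgeR). *Bad* stood at 47.3 and 44.7 CPM in PTX+ABT263, 48.4 and 52.4 CPM in PTX+GCV, 51.6 and 52.3 CPM in PTX and 47.3 and 44.6 CPM in Control, with a difference of 0.13 ± 0.06 for PTX against Control (adjusted p = 0.386, edgeR).

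*Bbc3* stood at 5.87 and 6.51 CPM in PTX+ABT263, 8.26 and 9.00 CPM in PTX+GCV, 8.07 and 7.27 CPM in PTX and 7.40 and 6.60 CPM in Control. By CPM both PTX+ABT263 sections were lowest, but with TMM factors the PTX+ABT263 sections were at 6.08 and 7.07 CPM of *Bbc3* and Control replicate 2 was at 6.84 CPM. The difference was -0.19 ± 0.12 for PTX+ABT263 against PTX (adjusted p = 0.563, edgeR) and -0.33 ± 0.12 against PTX+GCV (adjusted p = 0.211, edgeR). Without PTX+ABT263 replicate 1 these were -0.086 and -0.22, and without PTX+ABT263 replicate 2 they were -0.30 and -0.44. With total counts alone the difference of *Bbc3* from PTX+GCV passed (-0.48, adjusted p = 0.0349, edgeR). The intervals were wider for the scarcer genes. For PTX+ABT263 against PTX the 95% interval was -0.33 to 0.41 for *Pmaip1*, -0.18 to 0.52 for *Bcl2l11* and -0.26 to 0.31 for *Bak1*.

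**Figure D4:**
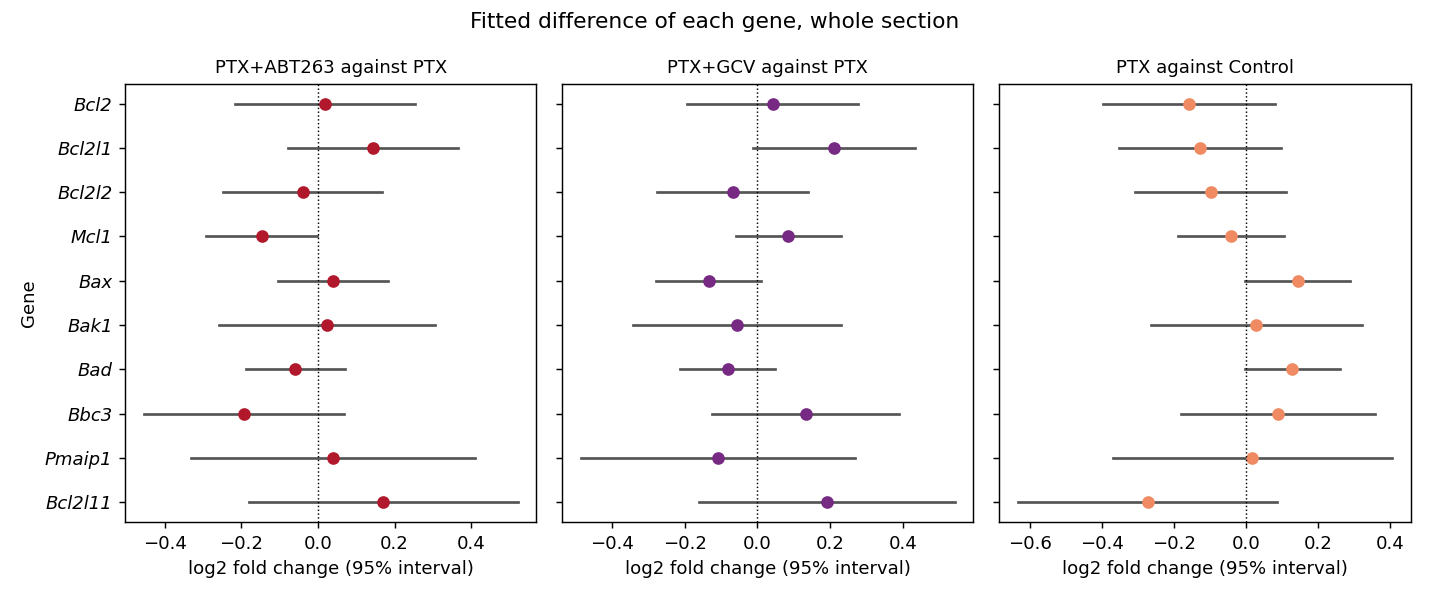
Fitted log2 fold change (horizontal axes, points) with 95% intervals (lines) of each gene in 3 comparisons of whole sections. The interval spans 0 for every gene except *Mcl1* in PTX+ABT263 against PTX, where it ends at -0.00.

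Ratios within a section do not depend on how sections are scaled. The summed UMIs of *Bcl2*, *Bcl2l1* and *Bcl2l2* were 2.98 and 3.32 times those of *Mcl1* in PTX+ABT263, 2.88 and 2.62 times in PTX+GCV, 2.61 and 2.80 times in PTX and 2.89 and 2.84 times in Control. All guardians together were 2.45 and 2.50 times the effectors in PTX+ABT263, 2.94 and 2.92 times in PTX+GCV, 2.48 and 2.54 times in PTX and 3.04 and 2.86 times in Control. By this ratio the PTX+ABT263 and PTX sections were lower than those of PTX+GCV and Control. How often ratios of other genes split the sections in this way was not counted. Of single genes, 40.8% to 51.2% did not overlap between 2 groups. That share is for pairs of groups with 2 sections each, and is not a background for a split of all sections. No test is given for sums of chosen genes.

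In 3 areas the comparisons were repeated. None of the 10 genes passed an adjusted p of 0.05 in isocortex, fiber tracts or hippocampus (edgeR), and DESeq2 called 0 there too. For PTX+ABT263 against PTX, 0.194% of all genes passed in the isocortex, 0.0529% in the tracts and 0.109% in the hippocampus. For PTX+GCV against PTX these shares were 0.0208%, 0.0317% and 0.0334%, and for PTX against Control 0.242%, 0.0423% and 0.0334%. In the fiber tracts 6 of the 10 genes passed the filter on low counts and in the hippocampus 9. At an unadjusted p under 0.05, 0 of the 10 genes passed in either the tracts or the hippocampus in any of these comparisons, beside 3.4%, 6.8% and 4.58% of all genes in the tracts and 3.71%, 5.74% and 3.6% in the hippocampus for PTX+ABT263 against PTX, PTX+GCV against PTX and PTX against Control. In the isocortex 1 passed for PTX+ABT263 against PTX, 2 for PTX+GCV against PTX and 1 for PTX against Control, beside 10.8%, 6.92% and 12.5% of all genes.

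In the isocortex *Bcl2l1* stood at 75.0 and 77.2 CPM in PTX+ABT263, 87.8 and 82.4 CPM in PTX+GCV, 61.0 and 74.4 CPM in PTX and 77.1 and 85.5 CPM in Control. By CPM both PTX sections were below the other 6. The log2 difference was 0.30 ± 0.10 for PTX+ABT263 against PTX (adjusted p = 0.291, edgeR), 0.28 ± 0.10 for PTX+GCV against PTX (adjusted p = 0.631, edgeR) and -0.29 ± 0.11 for PTX against Control (adjusted p = 0.286, edgeR). The 3 comparisons share the PTX sections. Without PTX replicate 1 the isocortical *Bcl2l1* values were 0.17, 0.15 and -0.15, and without PTX replicate 2 they were 0.46, 0.43 and -0.44. Set against the rest of the section, the difference between PTX+ABT263 and PTX was larger by 0.23 in the isocortex (adjusted p = 0.957, limma).

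Isocortical *Bcl2* stood at 17.7 and 16.7 CPM in PTX+GCV and at 12.8 and 12.8 CPM in PTX, and the PTX+ABT263 and Control sections lay between 12.9 and 16.3 CPM. The difference was 0.37 ± 0.14 for PTX+GCV against PTX (adjusted p = 0.631, edgeR), and larger by 0.50 than in the rest of the section (adjusted p = 0.987, limma). Isocortical *Mcl1* stood at 41.9 and 37.7 CPM in PTX+ABT263, 47.4 and 53.3 CPM in PTX+GCV, 47.5 and 49.6 CPM in PTX and 51.1 and 52.4 CPM in Control. The lowest pair was PTX+ABT263, in spots that are part of the whole sections above. The fitted *Mcl1* difference for PTX+ABT263 against PTX was -0.16 in the isocortex (95% interval -0.34 to 0.03, adjusted p = 0.562, edgeR). It was -0.14 in the hippocampus (-0.45 to 0.16) and 0.18 in the fiber tracts (-0.27 to 0.63), where the 2 groups overlapped. In the isocortex the smooth muscle genes *Myh11* (-2.08) and *Acta2* (-1.48) fell in PTX+ABT263 against PTX. The 5 listed astrocyte genes had an isocortical median log2 difference of -0.29 for PTX against Control. It was 0.16 for PTX+ABT263 against PTX and 0.08 for PTX+GCV against PTX. For the 5 endothelial genes these medians were 0.21, -0.09 and -0.07. Of these astrocyte and endothelial genes 0 passed there (edgeR), and DESeq2 called 1 of each list for PTX against Control. The part of these cell types in the isocortical values above was not tested. In the hippocampus, where it is scarce, *Bcl2* stood at 2.88 and 6.85 CPM in PTX+ABT263, 7.74 and 7.08 CPM in PTX+GCV, 3.26 and 4.74 CPM in PTX and 7.26 and 7.50 CPM in Control. The difference was -0.91 for PTX against Control (95% interval -1.93 to 0.11) and 0.85 for PTX+GCV against PTX (-0.06 to 1.75).

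*Cdkn2a*, the gene of p16, had a UMI in 54 spots. In them the ABT263-bound guardians together stood at 114 CPM (exact Poisson 95% interval 94.8 to 136, counting error only) and in the other spots at 130 CPM (129 to 131). *Bcl2l1* stood at 64.7 CPM (50.5 to 81.6) in them and at 74.7 CPM (73.7 to 75.8) elsewhere, and *Mcl1* at 41.9 CPM (30.7 to 55.9) and 45.8 CPM (45.0 to 46.7) elsewhere. Spots with a *Cdkn2a* UMI were deeper, with a median of 19025 UMIs against 11840. A spot holds other cells beside any p16-positive one.

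Of 15 further BCL-2 family genes, 12 were tested in whole sections and 0 passed in any of 6 comparisons (edgeR, with DESeq2 also calling 0), while 1 to 3 had an unadjusted p under 0.05 in each, beside 9.98% to 16.5% of all genes. For PTX against Control the smallest p-values belonged to *Bok*, an effector-like member, at -0.24 ± 0.06 (adjusted p = 0.143, edgeR), and *Hrk*, a neuronal BH3-only gene, at -0.42 ± 0.12 (adjusted p = 0.169, edgeR). The list's median log2 difference was -0.03 for PTX against Control, beside 0.01 over all genes, and 0.05 for PTX+ABT263 against PTX, beside 0.00.

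Of 17 genes for the apoptosome, caspases and their inhibitors 0 passed (edgeR, with DESeq2 also calling 0, and 0 to 2 at an unadjusted p under 0.05 in each comparison). *Apaf1*, the scaffold that activates caspase-9, stood at -0.48 ± 0.19 for PTX against Control (adjusted p = 0.309, edgeR) and at 0.48 ± 0.19 for PTX+GCV against PTX (adjusted p = 0.401, edgeR), comparisons that share the PTX sections. *Apaf1* stood at 10.3 CPM or more in both PTX+GCV sections, at 7.97 and 6.85 CPM in PTX and at 7.35 and 12.1 CPM in Control, so that PTX and Control overlapped. Of 11 transcription factors that act on the family 0 passed (edgeR, with DESeq2 also calling 0 in whole sections, and 0 to 4 at an unadjusted p under 0.05, the 4 being for PTX+ABT263 against Control, beside 9.98% of all genes), the smallest p for PTX against Control being that of *Jun* (-0.29 ± 0.09, adjusted p = 0.179, edgeR). In the isocortex *Jun* was at -0.58 ± 0.12 for PTX against Control (adjusted p = 0.0532, edgeR), and there DESeq2 called 1 gene of this list. Of 21 kinases, ubiquitin enzymes and 14-3-3 genes 0 passed (edgeR, with DESeq2 calling 1 for PTX+ABT263 against PTX+GCV, and 0 to 3 at an unadjusted p under 0.05). Of 13 organelle partners such as the VDAC channels 0 passed (edgeR, with DESeq2 also calling 0, and 0 at an unadjusted p under 0.05).

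Among the cell type lists, *Mog* of the oligodendrocyte list rose by 0.53 in PTX+ABT263 against PTX+GCV (adjusted p = 0.0351, edgeR), and no other gene of the neuron, astrocyte, oligodendrocyte, microglia, endothelium, pericyte and smooth muscle, or blood cell lists passed in whole sections with edgeR. DESeq2 called 1 neuron gene each for PTX+GCV against PTX and PTX against Control, 1 endothelial gene each for PTX against Control and PTX+ABT263 against Control, 1 oligodendrocyte gene for PTX+GCV against PTX, and 2 oligodendrocyte and 2 pericyte and smooth muscle genes for PTX+ABT263 against PTX+GCV. Myelin genes summed to 4101 and 4918 CPM in PTX+ABT263, 4130 and 3443 CPM in PTX+GCV, 3951 and 5331 CPM in PTX and 4880 and 4103 CPM in Control, and their part in the differences of the 10 genes was not tested.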

How the data were processed

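Visium spots of 8 coronal sections were analysed. The deposited files hold raw UMI counts for each gene in each spot, which the authors obtained by running Space Ranger against mm10 (version 1.2.1 in the file headers). The submitters' notes also name Seurat 4.0. Spots were kept from 200 genes up and where mitochondrial UMIs were at most 30%. Clusters came from SCTransform and integration in Seurat 5.3.0 (2000 features, 20 principal components, resolution 0.15), without the 10 genes and the listed genes among the features. Section sums of UMIs were compared in edgeR 4.0.16 by its quasi-likelihood test, with TMM factors and filterByExpr (the 10 genes kept whatever their counts) and Benjamini-Hochberg adjustment over all genes. Effects in an area against the rest used limma 3.58.1 (prior count 2). DESeq2 1.42.0, total counts, no filter, only the compared groups, thinned counts, equal area weights, fits without the sections labelled PTX+ABT263, all spots, resolution 0.3, a replicate block and leaving out each section were alternatives. In counts simulated for PTX against Control, the test found 54.1% of the genes set to differ 1.5 times in whole sections (16689 genes tested), 52.4% in isocortex (14415), 7.55% in tracts (9552) and 12.1% in hippocampus (11941). Section numbers did not pair sections (correlations -0.115 to 0.0662). The 10 genes and all lists were chosen with earlier results of these data known. Named genes are all 10, every listed gene that passed and up to 2 others per list with the smallest p, and the 3 genes with the highest Pearson r to each guardian over the area profiles. Images were not used here. All sections carry 1 batch label. A gene of the kinase list that the naming rule would give is not reported here.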

Additional observations from a re-analysis of the deposited data

How the results depend on the processing

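For 6 comparisons in whole sections and 3 each in isocortex, fiber tracts and hippocampus, the count of the 10 genes called was 0 under every alternative run, leaving out each section included (0 to 0), except for PTX+ABT263 against PTX+GCV in whole sections, where total counts called 2 (*Mcl1* at -0.39 and *Bbc3* at -0.48) and equal area weights called 1 (*Mcl1* at -0.45). Refits without the sections labelled PTX+ABT263 called 0. The replicate block, fitted although section numbers did not pair sections, called 0 of the 10 genes and 79 of all genes for PTX+ABT263 against PTX+GCV, against 164 without the block.

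None of the values that turned sign had passed the test, and the cause was not tested. For PTX+ABT263 against PTX, total counts, which moved the median of all genes to -0.11, gave *Bak1* -0.092, *Bax* -0.077, *Bcl2* -0.098 and *Pmaip1* -0.075. Equal area weights, with the median at -0.10, gave *Bak1* -0.15, *Bax* -0.048, *Bcl2* -0.065 and *Pmaip1* -0.097, and thinning gave *Pmaip1* -0.031. For PTX+GCV against PTX, equal area weights gave *Bak1* 0.0092 and *Pmaip1* 0.12. For PTX against Control, thinning gave *Bak1* -0.016 and *Pmaip1* -0.010, equal area weights *Bcl2l2* 0.080 and total counts *Mcl1* 0.0090.

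Leaving out PTX replicate 1 turned *Bcl2*, *Bcl2l1*, *Bcl2l2* and *Bak1* for PTX+ABT263 against PTX. With each section left out in turn, the PTX+ABT263 against PTX values ran between -0.14 and 0.20 for *Bak1*, -0.00053 and 0.081 for *Bax*, -0.11 and 0.15 for *Bcl2*, -0.034 and 0.34 for *Bcl2l1*, -0.14 and 0.054 for *Bcl2l2*, and -0.071 and 0.14 for *Pmaip1*. For PTX+GCV against PTX they ran between -0.22 and 0.12 for *Bak1*, -0.057 and 0.14 for *Bcl2*, and -0.15 and 0.024 for *Bcl2l2*. For PTX against Control they ran between -0.15 and 0.19 for *Bak1*, -0.33 and 0.049 for *Bcl2l1*, -0.22 and 0.016 for *Bcl2l2*, and -0.023 and 0.062 for *Pmaip1*.

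Counts over all genes moved more. For PTX+ABT263 against PTX 23 genes passed, 110 with DESeq2, 118 with total counts, 712 with no filter, 89 with only the compared groups and 43 with equal area weights. For PTX+GCV against PTX these were 4, 79, 36, 547, 56 and 17, and for PTX against Control 21, 146, 54, 874, 66 and 32. For PTX+ABT263 against PTX+GCV 164 genes passed (127 higher), 363 with DESeq2 and 1859 with total counts (159 higher). With each section left out in turn, these counts ran between 12 and 65 for PTX+ABT263 against PTX (lowest without PTX replicate 1), 0 and 50 for PTX+GCV against PTX (lowest without PTX replicate 2 or PTX+GCV replicate 1), 0 and 78 for PTX against Control (lowest without PTX replicate 2, highest without Control replicate 1) and 12 and 227 for PTX+ABT263 against PTX+GCV (12 without PTX+GCV replicate 2, and 50 and 43 without PTX+ABT263 replicates 1 and 2).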
